A study of Mus musculus with 2 samples.

Results

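Spliced intergenic models are transcript models that long reads placed outside every annotated gene and that hold at least 1 intron. They were chosen by the class the authors deposited for each model (intergenic) and by its exon number (2 or more), with chromosome Y left out. Both values come from the same reads as the counts, so the number of models, their class and their exon number are descriptions and were not tested. The rule took 409 of the 132801 models of replicate 1 and 471 of the 133303 models of replicate 2, which makes 880 of 266104 in all. By chromosome, strand and the position of every intron these were 836 different intron chains, and joining members whose exons overlapped on 1 strand gave 781 loci.

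The tissue was left cerebral cortex of adult B6NCrl mice aged 6 months, from which total RNA was read by long-read sequencing. Its 2 libraries form 1 group without treatment or genetic change, and there is no control group. The labels number them as biological replicates 1 and 2, yet both tissue samples carry the same donor record, so the spread between them may be partly technical. One label field describes a male and another gives the sex as not collected. Neither library had a read on the Y-linked genes Ddx3y, Eif2s3y, Uty or Kdm5d, whose 0 counts allow up to 3 reads each, while Xist, the RNA of the inactive X chromosome, had 29 and 27 reads in replicates 1 and 2. Both libraries thus go against the label male, and no result below uses sex. The tables held 1306424 reads in replicate 1 and 1304133 in replicate 2, so that 1 read stood for 0.765 and 0.767 counts per 1000000 reads of the table (CPM). All 5 excitatory neuron markers, all 5 astrocyte markers and all 5 oligodendrocyte markers had reads in both libraries. The 3 striatal markers (105 and 77.4 CPM in sum) and the 3 choroid plexus markers (58.2 and 38.3 CPM) also had reads, and their part in the results was not tested.

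A long read can show several introns of 1 RNA molecule together, so its intron chain identifies a transcript without assembly from fragments. TALON, the program that made these models, compares each chain with an annotation and calls a model intergenic when it belongs to no annotated gene. Many RNAs of this kind in the brain are long noncoding RNAs, which are typically shorter, have fewer exons and are less abundant than messenger RNAs. Mammalian promoters rich in CpG dinucleotides often start RNA in both directions, and a spliced RNA leaving a gene's promoter on the other strand is called a divergent transcript.

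The promoter stretches below are shown because the 4 chains they belong to were among the 8 of highest mean level in both libraries and represent the 2 kinds of start described further on. They are from RefSeq, build GRCm38.p6, and run 5′ to 3′ on the strand of the intergenic model, with CpG dinucleotides in capitals. Gm34267 (chr10:22058605-22058904, minus strand) and Gm38396 (chr17:17179055-17179334, plus strand) are RefSeq genes on the same strand as the model. Usp24 (chr4:106315963-106316242, printed as the minus strand) and Med26 (chr8:72548281-72548560, printed as the plus strand) are protein-coding genes that run the opposite way from the model.
Gm34267: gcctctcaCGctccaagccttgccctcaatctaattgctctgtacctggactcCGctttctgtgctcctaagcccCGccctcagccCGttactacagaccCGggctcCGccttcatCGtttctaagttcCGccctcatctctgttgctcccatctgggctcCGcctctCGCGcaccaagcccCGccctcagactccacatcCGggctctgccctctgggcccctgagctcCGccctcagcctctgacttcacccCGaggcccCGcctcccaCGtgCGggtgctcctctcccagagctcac
Gm38396: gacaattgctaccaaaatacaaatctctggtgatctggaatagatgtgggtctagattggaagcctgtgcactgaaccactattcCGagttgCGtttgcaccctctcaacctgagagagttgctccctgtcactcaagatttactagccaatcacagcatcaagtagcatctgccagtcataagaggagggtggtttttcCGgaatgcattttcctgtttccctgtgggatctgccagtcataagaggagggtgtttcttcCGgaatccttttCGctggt
Usp24: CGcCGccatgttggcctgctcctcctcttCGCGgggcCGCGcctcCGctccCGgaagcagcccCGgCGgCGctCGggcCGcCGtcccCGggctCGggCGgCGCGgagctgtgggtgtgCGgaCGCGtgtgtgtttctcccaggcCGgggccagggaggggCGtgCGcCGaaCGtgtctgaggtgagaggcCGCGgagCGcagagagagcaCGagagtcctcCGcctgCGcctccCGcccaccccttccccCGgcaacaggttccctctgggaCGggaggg
Med26: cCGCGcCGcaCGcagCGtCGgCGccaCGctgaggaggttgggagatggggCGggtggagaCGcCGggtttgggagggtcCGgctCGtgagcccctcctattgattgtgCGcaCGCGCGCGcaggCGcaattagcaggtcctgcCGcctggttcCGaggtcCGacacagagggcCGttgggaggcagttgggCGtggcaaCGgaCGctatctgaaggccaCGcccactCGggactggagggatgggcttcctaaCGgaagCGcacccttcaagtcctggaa
The RefSeq start of Gm34267 and that of Gm38396 are at base 251 of their stretch, counted from 1, and those of Usp24 and Med26 at base 30. The intergenic model of replicate 2 started at base 275 in the Gm34267 stretch, and that of replicate 1 at base 315, past its end. In the Gm38396 stretch the models started at bases 269 and 258. The model at Usp24 started at base 30 in both libraries, exactly at the RefSeq start, and the model at Med26 started 11 bases before its stretch. As described further on, the deposited models placed such starts on an annotated base. The starts at Usp24 and Med26 are therefore not measured read starts. These stretches held 18 CpG (Gm34267), 5 (Gm38396), 36 (Usp24) and 30 (Med26), and none held TATAAA on the printed strand.

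The members were rare. Their reads numbered 508 in replicate 1 and 586 in the other library, or 389 CPM (95% Clopper-Pearson interval 355.8 to 424) and 449 CPM (414 to 487). The mean was 419 ± 42.8 CPM (SD, n = 2). These intervals, like all others here, cover counting error only. Unspliced intergenic models, the members' counterpart with 1 exon, held 7269 and 5814 reads, so the members took 6.53% of intergenic reads in replicate 1 and 9.16% of those of replicate 2. A single read supported 89.2% of the members of replicate 1 and 88.1% of those of replicate 2. Only 44 and 56 members had 2 or more reads, 8 in each library had 5 or more, and the most that any had was 11.

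For scale, annotated long noncoding genes of the cortex spanned a wide range in the same libraries, counted once per read and not divided by length. Malat1, a nuclear RNA, had 201 ± 47.4 CPM (SD, n = 2), and the imprinted Meg3 had 62.1 ± 6.42 CPM. Miat, another nuclear RNA, had 1.53 CPM in each library. Of the 5854 annotated lincRNA genes, 1026 had a read, and their median was 0.766 CPM, about the level of 1 read. Of these, 42.2% had a read in both libraries. The 4 highest matched chains, chosen for their level, had 6.13 to 7.66 CPM on average.

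Members were short transcripts drawn from long stretches of genome. The median exonic length was 922 bases in replicate 1 and 918 in replicate 2, and the median span on the genome was 6066 and 6602 bases. Known spliced models had medians of 2054 and 1969 bases and of 6 exons in each library. Of the members, 225 and 249 had 2 exons, 108 and 134 had 3, and 76 and 88 had 4 or more, with up to 11 in replicate 1 and 7 in replicate 2. The members' first exons had a median of 175 and 172 bases, their internal exons 117 and 123, and their last exons 580 and 526. Their introns had a median of 2093 and 2444 bases, and 18.9% and 19.5% were longer than 10 kb. Spliced models of annotated lincRNA transcripts had median introns of 2490 and 2133 bases, with 20.9% and 20.3% over 10 kb. For all known spliced models the median intron was 1308 and 1327 bases, and 9.19% and 9.12% were over 10 kb. In median intron length the members were nearer to the lincRNA models than to known models as a whole, which is a description. The share with 2 exons, which the rule bounds from below, was 55.0% and 52.9% for members, 46.9% and 46.0% for lincRNA models, 58.2% and 61.4% for spliced antisense models and 11.8% and 12.3% for known models. The shortest intron was 43 bases in replicate 1 and 60 in replicate 2, and 1 member of each library had an intron under 70 bases. Members lay on all of 20 chromosomes, with 43 and 39 on chromosome 1 and 13 and 10 on X, and on both strands (215 and 251 on the plus strand).

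Most chains were members in 1 library only. Exactly the same chain was a member in both libraries in 44 cases, which is 10.8% of the members of replicate 1 (7.93% to 14.2%) and 9.34% of those of replicate 2 (6.87% to 12.3%). These 44 held 108 reads (21.3% of member reads) in replicate 1 and 102 (17.4%) in replicate 2. Of them, 17 had 1 read in each library, 12 had at least 2 in each and 5 at least 5 in each. Equal read numbers occurred in 23 of the 44, and 38 differed by at most 2 reads.

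Chains with more reads were found again more often. Of members with 1 read, 6.03% (replicate 1) and 6.51% (replicate 2) were found in the other library. With 2 reads these shares were 44.4% (12 of 27) and 20.0% (7 of 35), and with 3 or more 58.8% (10 of 17) and 47.6% (10 of 21). The same count in other classes, each matched within its class, gave 17.9% and 16.9% for spliced antisense models and 11.3% and 8.44% for spliced genomic models. It gave 17.8% and 18.1% for models using an unannotated splice site (NNC), and 31.1% and 35.4% for new combinations of annotated splice sites (NIC). Incomplete matches of an annotated chain (ISM) reached 49.8% and 46.8%, known lincRNA models 57.1% and 63.3%, and all known models 76.0% and 80.9%. Since classes differ in reads per model, chains with 1 read were also compared. Their shares were 13.0% and 9.80% for antisense, 6.61% and 5.81% for genomic, 10.9% and 11.0% for NNC, 34.8% and 41.9% for known lincRNA and 42.7% and 49.8% for known models. Among chains with 1 read, members and genomic models had the lowest shares, with overlapping intervals, while the intervals of the NNC, NIC, ISM, lincRNA and known classes lay above those of the members in both libraries. With 2 reads this order did not hold: members reached 44.4% and 20.0%, antisense models 40.8% and 38.9%, and NNC models 37.0% and 40.5%.

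**Figure D1:**
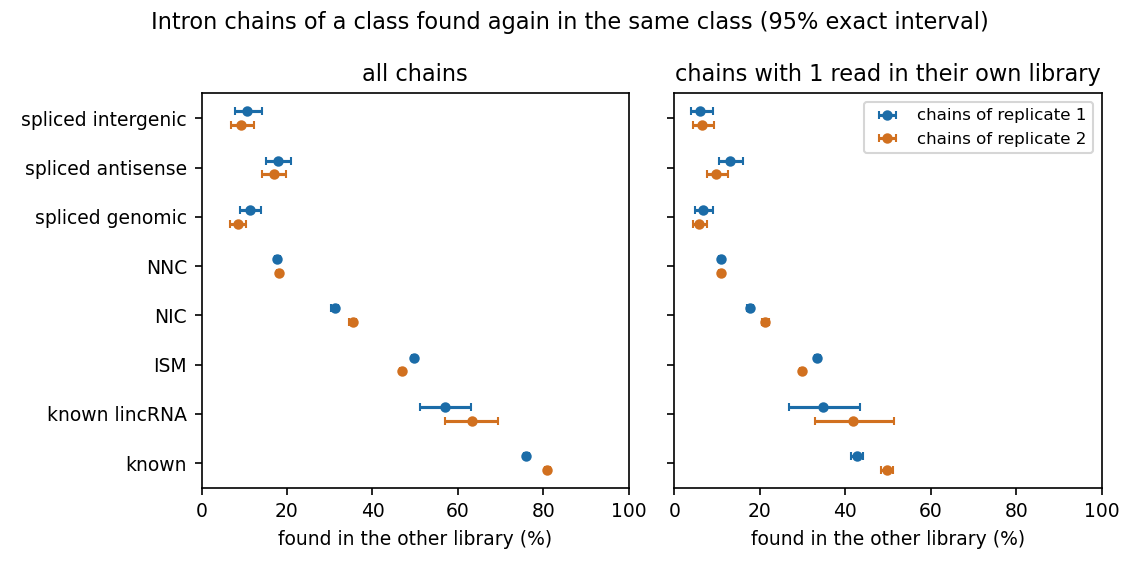
Share of intron chains of each model class (rows) that the other library held in the same class, in percent, for all chains (left) and for chains with 1 read in their own library (right); points are the chains of replicate 1 and replicate 2, bars the 95% exact binomial interval. Spliced intergenic chains sit at 10.8% and 9.34% on the left and at 6.03% and 6.51% on the right, beside genomic models and below the shares of the remaining classes.

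Among the members, chains with few exons were found again more often. Chains of 2 exons were found again in 14.7% and 13.3% of cases, chains of 3 exons in 8.33% and 6.72%, and chains of 4 or more in 2.63% (0.320% to 9.18%) and 2.27% (0.276% to 7.97%), below the intervals of the 2-exon chains (10.3% to 20.0% and 9.30% to 18.1%). Chains of 4 or more exons also had fewer members with 2 or more reads (5.26% and 9.09%, against 13.3% and 14.5% of 2-exon chains). Among members with 1 read the shares were 7.69% and 9.86% for 2 exons and 1.39% and 1.25% for 4 or more, with overlapping intervals. Members that overlapped a RefSeq gene lacking in the annotation were found again in 10.4% and 9.43%, and members that did not in 11.1% and 9.27%, again with overlapping intervals. Looser matching found more pairs. At least 1 exact intron was shared with a member of the other library by 72 members of each library, and exons overlapped on the same strand for 98 and 97. If a chain also counted when the other library gave it another class, 62 members of replicate 1 (15.2%) and 58 of replicate 2 (12.3%) were found. This looser count was not made for the other model classes or for members with 1 read alone.

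The 44 chains were matched by their introns, and their ends were left free. The starts of the models differed by a median of 16 bases between the libraries, and by at most 50 in 35 of 44. The ends differed by a median of 4.5 bases, and by at most 50 in 32 of 44, although the largest difference was 1772 bases. Among the 34 that did not start on the first base of an opposite-strand transcript, described below, the medians were 23.5 bases for starts and 4 for ends. Of these 34, the chain at the pseudogene Gm7367, named here for this reason, still started on an annotated base in both libraries, and the chain at Gm18637 ended on one.

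The best supported chain lay on chromosome 11 (chr11:69011488-69012477, minus strand, 2 exons of 67 and 479 bases). It had 10 reads in each library, or 7.65 and 7.67 CPM. No RefSeq gene of the table used here overlapped it. Its nearest annotated gene, at 3028 bases, was Pfas, which encodes an enzyme of purine synthesis, and the start of Ctc1, a telomere maintenance gene on the other strand, lay 3434 bases upstream of the model's start. The model starts differed by 8 bases between the libraries and the ends by 1.

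The second chain (chr3:55541581-55543103, minus strand, 2 exons of 202 and 195 bases) had 8 and 11 reads in replicates 1 and 2, or 7.28 ± 1.63 CPM (SD, n = 2). It lay 2513 bases from Dclk1, which encodes a microtubule-associated kinase of neurons, and within the RefSeq lncRNA gene Gm31796, starting 242 bases after that gene's start. The third (chr10:22054150-22058590, minus strand, 3 exons of 241, 142 and 968 bases) had 9 reads in each library, or 6.90 ± 0.00856 CPM. It ended on the last base of the processed pseudogene Gm18637 and overlapped the RefSeq lncRNA Gm34267, whose promoter is printed above. These 3 chains varied little between the libraries, by 0 to 3 reads.

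The fourth chain (chr8:72548270-72551065, plus strand, 2 exons of 1062 and 1134 bases) started at Med26, which encodes a subunit of the Mediator complex, and had 11 reads in replicate 1 against 5 in replicate 2. Its level was 6.13 ± 3.24 CPM (SD, n = 2). Med26 itself had 5 and 7 reads, fewer than the member in replicate 1 and more in replicate 2. On the X chromosome, a chain 875 bases from the processed pseudogene Gm6829 (chrX:9328983-9332625, minus strand) had 4 and 7 reads. The sixth chain (chr4:106315072-106316213, minus strand) started at Usp24, a deubiquitinase gene, and had 5 reads in each library beside 15 and 12 on Usp24 itself. A chain 4001 bases after the end of Coro2b (chr9:62414318-62415491, minus strand), which encodes an actin-binding coronin, had 6 and 3 reads. It overlapped the RefSeq lncRNA Gm40523. Of the first 7 chains, those near Dclk1 and Gm6829 had 3 more reads in replicate 2, those at Med26 and near Coro2b more in replicate 1, and 3 were equal.

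The remaining 3 of the 10 highest chains had few reads. The chain that overlapped the RefSeq gene Gm38396 (chr17:17179323-17205730, plus strand) had 3 reads in each library, 4 exons and a first intron of 23243 bases, and lay 29142 bases from the lincRNA gene Gm5165. The chain 12859 bases beyond Map3k21 (chr8:125960299-125964678, plus strand, 3 exons) and the chain 1806 bases from P2ry4, a nucleotide receptor gene (chrX:100596675-100598219, plus strand, 2 exons), had 1 and 4 reads each. The only other matched chain with 4 exons lay 20719 bases from Cacna1e, a calcium channel gene (chr1:154905220-154926555, minus strand), with 1 read in each library, and its introns measured 14701, 1518 and 4061 bases. Next in exon number came a 3-exon chain 40025 bases from the Wnt receptor gene Fzd10 (chr5:128644118-128656772, minus strand), with 2 reads in each library. RefSeq lncRNAs overlapped the chains near Map3k21 (Gm42056), Cacna1e (Gm30521 and Gm41976) and Fzd10 (Gm33931).

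**Figure D2:**
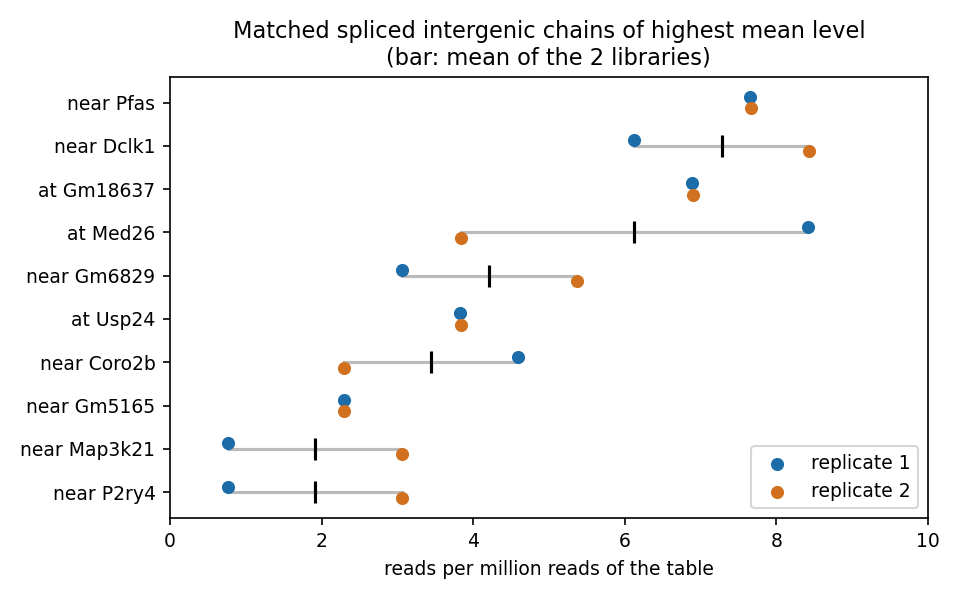
Level of the 10 matched chains of highest mean CPM, in CPM (x axis), named by the gene they touch ("at") or lie nearest to ("near"); points are replicate 1 and replicate 2 and the bar is their mean. The chains near Pfas and Gm5165 and at Gm18637 and Usp24 have nearly equal points, and the chain at Med26 the widest gap, from 3.83 to 8.42 CPM.

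**Figure D3:**
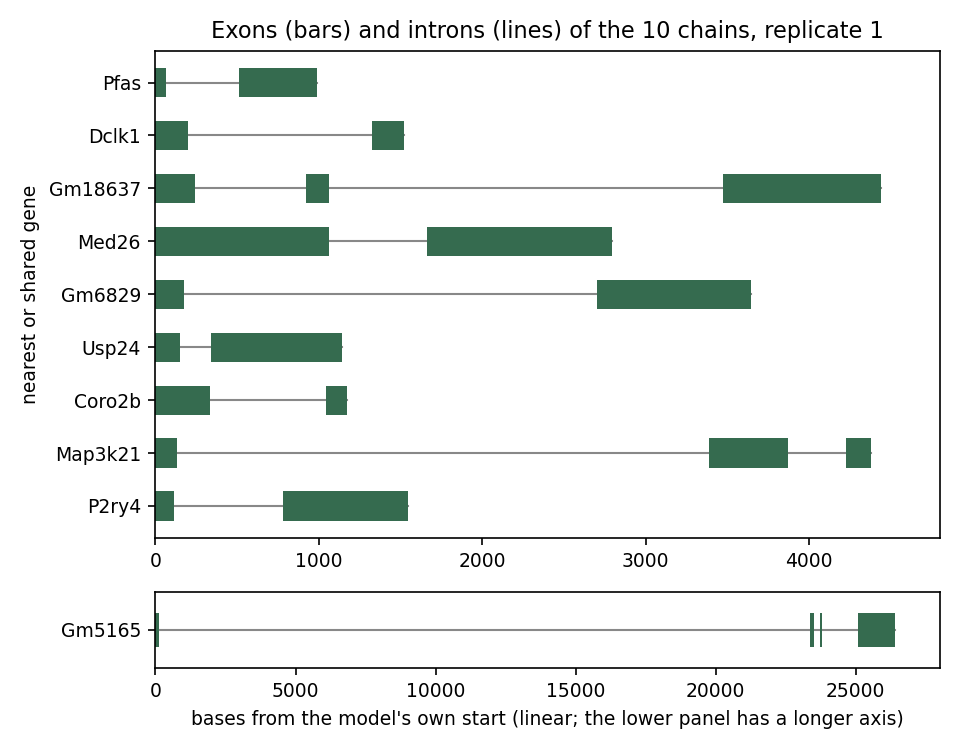
Exons (bars) and introns (lines) of the same 10 chains as modelled in replicate 1, in bases from the model's own start along its strand; the lower panel has a longer axis for the chain near Gm5165. The chain near Gm5165 opens with an intron of 23243 bases.

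Some chains had several reads as members in 1 library and were not members in the other. The most reads were on a 2-exon chain 4220 bases from the lincRNA gene Gm32296 (chr12:85524658-85525378, plus strand), with 7 reads in replicate 2 and 0 in replicate 1. A chain beyond the lincRNA gene Gm49263 (chr15:36726629-36728609, plus strand) had 6 reads in replicate 2 and 0 in replicate 1. It overlapped the RefSeq lncRNAs Gm41297 and A830021M18Rik. Only replicate 1 held, with 5 reads, a member chain 1545 bases before the annotated Sec24d, a gene of vesicle transport (chr3:123264782-123265910, plus strand). In RefSeq the span of Sec24d overlapped this chain. A chain 2704 bases from Selenoi, a phospholipid synthesis gene (chr5:30223100-30229877, minus strand), also had 5, and a chain 12854 bases beyond Wnt10a, a Wnt ligand gene (chr1:74817033-74825909, plus strand), had 4, all with 0 in replicate 2. The chain near Wnt10a overlapped the RefSeq lncRNA Gm32275. At 3 of these 5 loci another member chain had reads in the library without the chain, with 1 read in replicate 1 near Gm49263 and, in replicate 2, 2 reads near Selenoi and 1 near Wnt10a. Here 0 means that the library held no member with that chain. Whether the other library held the chain under another class was not looked up for these 5. A count of 0 allows up to 3 reads, or 2.30 CPM, so the chains of 4 and 5 reads lie close to what could have been missed.

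To set the libraries against each other, reads were summed per locus and tested together with all annotated genes by an exact binomial test. The background was 7.05%: of 11838 annotated genes with at least 10 reads, 835 were called (adjusted p under 0.05 and at least 2-fold), 644 of them (5.44% of those tested) higher in replicate 1 and 191 (1.61%) higher in replicate 2. Of the 781 loci only 6 reached 10 reads, and 0 of these were called, with 0 also at an unadjusted p under 0.05. These loci had 10 to 20 reads, and of the 2233 annotated genes in that range 62 (2.78%) were called. The largest difference was at Med26, with a log2 ratio of replicate 2 to replicate 1 of -1.06 (exact binomial test, adjusted p = 0.526), followed by the locus at Gm6829 with 0.74 (exact binomial test, adjusted p = 0.710). With so few reads the test could show little. In simulated counts at these depths, genes with 10 to 19 reads and a 4-fold change (log2 of 2) were called in 1 of 12 cases. The test compares 2 libraries with counting noise, not conditions.

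At 50 loci, unspliced intergenic reads also covered member exons on the same strand. When these reads were added, 11 loci reached 10 reads and 3 were called, all higher in replicate 1. The locus near Cmip (chr8:117459430-117461010, plus strand) had 52 unspliced reads in replicate 1, 0 in replicate 2 and a single spliced read, which was in replicate 2. The locus near Hipk2 (chr6:38687512-38690073, plus strand) had 25 and 0 unspliced reads, and that near 2410015M20Rik (chr17:56609771-56610954, plus strand) 21 and 0. Among models classed intergenic, spliced and unspliced reads of these 3 loci thus came from different libraries. Unspliced models of other classes at these loci were not counted. The 3 calls therefore hold for models of this class and not for all reads of the loci.

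The members lay at a median of 8778 bases from the nearest annotated gene in replicate 1 and 9897 in replicate 2 (quartiles 1653 to 23916 and 1782 to 30553), by GENCODE M21 on mm10. Within 5 kb lay 156 of 407 (38.3%) and 178 of 471 (37.8%), and beyond 50 kb 41 (10.1%) and 83 (17.6%). Only 2 members, on a scaffold without an annotated gene, had no distance. With at least 2 reads the median over both libraries was 3968 bases, to the nearest same-strand gene it was 23281, and with RefSeq genes added to the annotation, an alternative chosen after seeing the data, it was 0. Unspliced intergenic models had lower medians, 5570 and 2178 bases, with 48.0% and 69.0% within 5 kb. In replicate 1 this order did not hold at all distances: 14.7% of unspliced models and 10.1% of members lay beyond 50 kb, and 20.6% and 20.9% within 1 kb. The 2 libraries differed strongly in unspliced models, of which there were 4283 in replicate 1 and 2857 in the other, and less in spliced ones. The nearest gene was protein-coding for 54.8% and 47.6% of members, a lincRNA gene for 16.0% and 18.9%, and a processed pseudogene for 13.8% and 16.1%. Among unspliced intergenic models a lincRNA gene was nearest in 11.6% and 8.19%, and lincRNA genes made up 10.5% of the annotated genes.

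**Figure D4:**
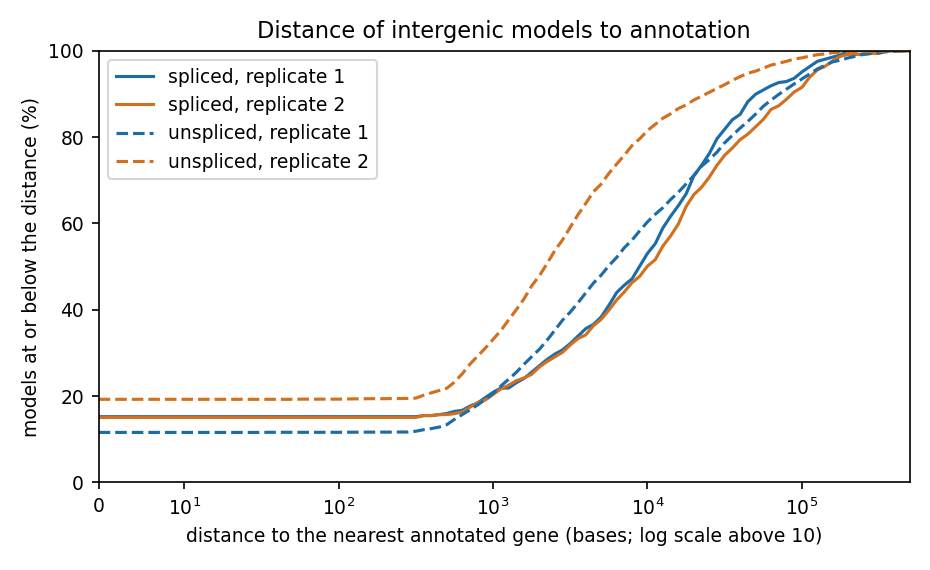
Cumulative share of intergenic models (y axis, percent) by distance to the nearest annotated gene (x axis, bases, log scale above 10), for spliced models (solid) and unspliced models (dashed) of replicate 1 and replicate 2. The solid lines run together up to 10 kb, with 38.3% and 37.8% of spliced models within 5 kb, while the dashed lines differ (48.0% and 69.0%); all lines are nearly flat between 0 and 300 bases.

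Exact contact with an annotated gene made a class of its own. Of 878 members with a distance, 133 touched a gene, each by exactly 1 exonic base, 0 lay 1 to 300 bases away and 48 lay further off but within 1000 bases. Unspliced models followed the same pattern, with 1046 in contact, 10 at 1 to 300 bases and 775 further off but within 1000 bases. For 115 members the shared base was the first base of an annotated transcript on the opposite strand, and 0 members started 1 to 500 bases from such a start. The deposited models thus placed these starts on the annotated base itself. How far the reads' own starts lay from the annotated start cannot be read from these files.

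Contact of any kind was found for 15.2% and 15.1% of spliced and 11.6% and 19.3% of unspliced models, so that its order differed between the libraries. The start on an opposite-strand transcript was more frequent among spliced models in both. A start on the first base of an opposite-strand transcript was found for 56 members of replicate 1 (13.7%, 10.5% to 17.4%) and 59 of replicate 2 (12.5%, 9.67% to 15.9%). For unspliced models it was found for 191 (4.46%, 3.86% to 5.12%) and 176 (6.16%, 5.31% to 7.11%). The intervals of spliced and unspliced models did not overlap in either library. The members concerned held 79 reads in each library, or 15.6% and 13.5% of member reads. Places were assigned in order, so that each member had only 1. Of the members without contact, 25 and 31 lay within 5 kb after the end of a same-strand transcript. Of those then left, 30 and 28 started within 5 kb upstream of an opposite-strand start. Among unspliced models the place after a same-strand end held 18.9% and 27.5%, against 6.11% and 6.58% of the members.

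The opposite-strand genes were mostly protein-coding genes with reads of their own. They numbered 101, of which 98 were protein-coding, and 14 of the 101 had such a member in both libraries. Of all annotated genes, 39.7% were protein-coding. Of the 98, 94.9% had reads in both libraries and their median was 17.2 CPM (quartiles 8.04 to 47.3). Of the 122 other protein-coding genes within 5 kb of a member, 83.6% had reads in both, with a median of 11.9 CPM (3.26 to 51.3). For the 236 nearest protein-coding genes more than 50 kb from their member, these values were 77.5% and 11.7 CPM (1.15 to 35.7). For all 22028 protein-coding genes they were 60.5% and 3.83 CPM (0 to 24.5). Among the matched chains, 10 of 44 began at such a start, at Med26, Usp24, Enah, Cnksr3, Arf3, Trappc8, Exoc6, Lingo1, Prkrip1 and Nkd1, genes named here because they complete this set of 10. Enah, which encodes a regulator of actin filaments, had 2 member reads in each library beside 18 and 26 reads of its own. Arf3, a small GTPase gene, had 2 and 1 member reads beside 439 and 251. At Lingo1, a gene of a neuronal membrane protein, the member reads numbered 2 and 1 beside 216 and 104. Only at Med26 in replicate 1 among these 4 did the member have more reads than the gene. Members with a start of this kind were found again in 17.9% (8.91% to 30.4%) and 16.9% (8.44% to 29.0%), and the other members in 9.63% and 8.25%, with overlapping intervals.

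Many members overlapped genes of another annotation. Overlap was counted between whole spans, introns included and on either strand, so an overlapped gene need not be the same transcript. RefSeq's gene table for GRCm38.p6 held 49980 genes with a position, of which 11454 could not be matched to GENCODE M21 by symbol, synonym or Ensembl identifier. Members overlapped such an unmatched gene in 193 cases (47.2%) in replicate 1 and 212 (45.0%) in replicate 2, against 7.99% and 9.42% of unspliced intergenic models. In 179 and 200 of these cases the gene was an lncRNA. In all, 384 unmatched RefSeq genes were overlapped. A span of several kilobases meets a gene more easily than the short unspliced models do. Starts are single positions, so they were compared as well. Whether spliced and unspliced models differ in other ways that bear on their starts was not tested.

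On the same strand, 84 members of replicate 1 (20.5%, 16.7% to 24.8%) and 88 of replicate 2 (18.7%, 15.3% to 22.5%) started within 500 bases of a RefSeq start. For unspliced models this held for 24 (0.560%) and 25 (0.875%). Among the 172 members the RefSeq start lay upstream in 95, at the same base in 3 and downstream in 74, and the median offset was 90.5 bases. Members with 1 read that were not found again did so in 18.1% and 16.5%, and the remaining members in 33.3% (22 of 66, 22.2% to 46.0%) and 28.9% (24 of 83, 19.5% to 39.9%). Of the 44 matched chains, 15 started within 500 bases of a same-strand RefSeq start and 20 overlapped an unmatched RefSeq gene. No RefSeq gene at all was overlapped by 15, and 13 of these also did not begin at an annotated opposite-strand start. Of these 13, those near Pfas and Gm6829 had the most reads, and those near P2ry4 and the snRNA gene Gm23845 followed with 5 each over both libraries.

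**Figure D5:**
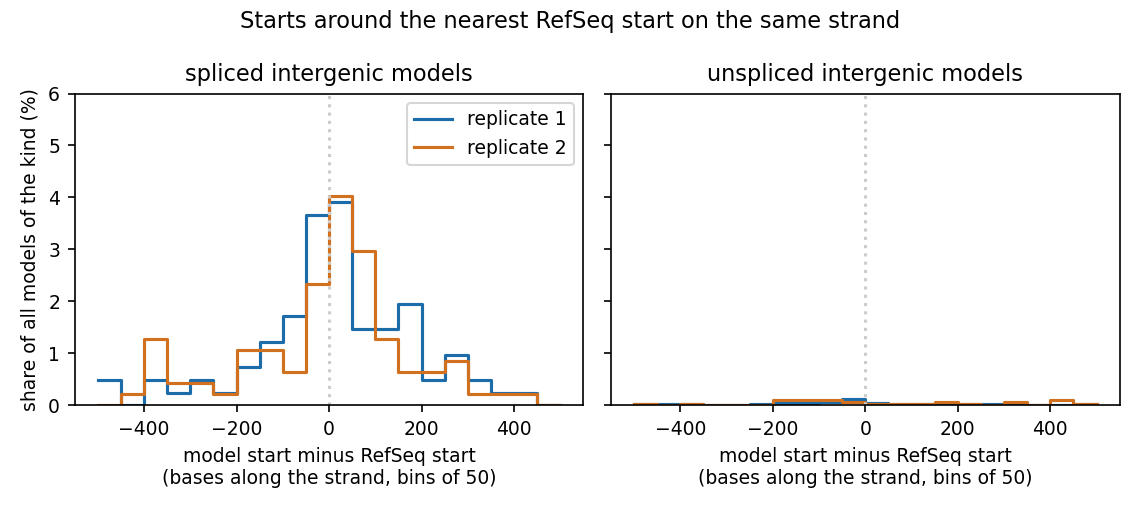
Starts of spliced (left) and unspliced (right) intergenic models around the nearest RefSeq start on the same strand, in bins of 50 bases (x axis, positive where the model starts downstream), as a share of all models of that kind (y axis, percent) in replicate 1 and replicate 2. Spliced models peak around 0, with 20.5% and 18.7% within 500 bases in all, against 0.560% and 0.875% of unspliced models.

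The promoters at the 2 kinds of start differed in CpG number. A member could have both kinds of start: the chain at Nkd1 also started within 500 bases of the same-strand RefSeq start of Gm35162. RefSeq windows of 300 bases (250 before and 50 after the start) were at hand for 145 RefSeq starts on the same strand as a member and within 500 bases of it, and for 73 RefSeq starts of the opposite-strand genes. The same-strand windows had a median of 6 CpG (quartiles 3 to 13), and 33.8% had 10 or more. The opposite-strand windows had a median of 23 CpG (17 to 35), and 90.4% had 10 or more. All 32851 promoter windows had a median of 7 and a share of 43.5%, those of protein-coding genes 13 and 56.8%, and those of lncRNA genes 4 and 19.1%. Of the 101 opposite-strand genes, 98 were protein-coding. Gene type was not matched between the 2 sets of windows, and its part in the difference was not tested. TATAAA, on the gene's strand, occurred in 8.97% of the same-strand windows and 2.74% of the opposite-strand windows, against 8.32% of all windows. Of the printed stretches, those of the opposite-strand genes Usp24 and Med26 held 36 and 30 CpG, and the same-strand stretches 5 (Gm38396) and 18 (Gm34267), the latter above the third quartile of its kind.

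Of a list of 40 neural transcription factor genes, 1 (2.50%) was the nearest gene of a member, beside 1.34% of all annotated genes: Neurod6, a factor of cortical projection neurons. That model, in replicate 1, had 1 read and 5 exons and lay 4749 bases away on the other strand (chr6:55645912-55673073, plus strand).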

How the data were processed

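Total RNA from the left cerebral cortex was sequenced with long reads in 2 libraries of 1 group. The authors deposited, for each library, counts (whole reads per transcript model, not normalized) and, per the file headers, other values: exon number, model length and class. The deposited GTF files give positions on mm10. The sources used here do not give the aligner or TALON's version. Models were kept as deposited. Gene positions came from GENCODE M21, and scaffold names were matched to it. Members of the 2 libraries were paired where chromosome, strand and all introns were identical. RefSeq genes, starts and promoter sequences (GRCm38.p6) were matched by position, and to M21 by symbol, synonym or Ensembl identifier.

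CPM is a count per 1000000 reads of the table. Shares have 95% Clopper-Pearson intervals, and a count of 0 allows 3 reads. Annotated genes and member loci with at least 10 counts were compared by an exact two-sided binomial test given the library totals, with Benjamini-Hochberg adjustment over 11844 tests. Calls had an adjusted p below 0.05 and a log2 ratio of at least 1 in size (0.5 counts added). The test was tested on simulated data. Python 3.11.15, scipy 1.17.1 and R 4.3.3 were used, and edgeR 4.0.16 and DESeq2 1.42.0 supplied normalization factors only. The named items are the 10 matched chains of highest mean CPM, the 5 matched chains of most exons, the 5 chains of most reads in 1 library, the 10 loci of most reads, their nearest genes, and fixed lists of lncRNAs, transcription factors and markers. The members and lists were chosen with earlier results of these data known. Chromosome Y, with 2 models (2 reads) in replicate 1 and 1 (1 read) in replicate 2, was left out by the rule.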

Additional observations from a re-analysis of the deposited data

Results flagged for a closer look

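Intergenic genes also held spliced models of other classes, which the rule does not take: 109 models with 163 reads in replicate 1 and 134 models with 193 reads in replicate 2. Both counts are above the 3 reads that a count of 0 allows. Of these, 85 models (124 reads) and 92 models (138 reads) lay in a gene that also held a member. The members therefore held 75.7% and 75.2% of the spliced reads of intergenic genes.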

How the results depend on the processing

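With at least 2 reads a model, 100 members were left, at a median distance of 3968 bases, with 53.0% within 5 kb and 12 chains in both libraries. Leaving out 1 library at a time gave 409 to 471 members, medians of 8778 to 9897 bases, 37.8% to 38.3% within 5 kb, and 389 to 449 CPM. The median distance was 23281 bases to a same-strand gene (16.3% within 5 kb) and 22532 to a protein-coding gene (28.8%). Chosen after seeing the data, leaving out starts on an annotated opposite-strand base gave 12543 bases and 28.7%, and adding RefSeq genes gave 0 bases and 72.0%. A shared intron matched 72 members and exon overlap 98. Per 1000000 reads on spliced models, members had 574. With unspliced reads of models classed intergenic included, 3 loci were called. The loci near Pfas, Gm18637 and Usp24, equal in reads, went from a log2 ratio of 0.0025 to -0.023 under edgeR's TMM factors. The cause was not tested for any of these changes. The annotated genes called numbered 800 to 862 under the alternatives, and introns of at least 70 bases, loci in place of models and intron ends within 10 bases kept their results. A chain of 1 read is at the limit of detection. Splice-site dinucleotides and 3′ end motifs were not run, since no genome was used here. No paired analysis was possible because the series has 1 group.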
